A study of Mus musculus with 42 samples.

Results

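The adipocytes of mouse visceral adipose tissue (VAT, the fat around the inner organs) were set against adipocytes made in culture from stromal cells of the same tissue. The comparison took 8 of the 42 libraries of the series, chosen by their titles: 2 libraries of floating cells (wild-type adipocytes numbers 2 and 3) and 6 libraries of stromal cells kept for 8 days under adipogenic differentiation, 3 from the population named VmSC4 and 3 from the population named VmSC5. The study examined how regulatory T cells (Tregs) of VAT act on adipogenesis. The floating cells came from mice with the Pparg-Tdt reporter that lacked the diphtheria toxin receptor allele (Pparg-Tdt:Foxp3-DTR-) and had received diphtheria toxin, as the littermate controls of a Treg depletion. The cultured cells came from Pparg-Tdt mice, for which the labels name no toxin. The reporter is thus in the genotype of all 8 libraries. The labels name VAT as the tissue of all of them and give neither the age of the mice nor a statement that replicates came from separate animals, so p-values measure the spread between these libraries, which may be technical.

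White adipocytes store triglyceride in a single large droplet and release adipokines, hormones such as leptin and adiponectin, while thermogenic (brown and beige) adipocytes burn fatty acids in mitochondria uncoupled by UCP1. The nuclear receptor PPARG and the factor CEBPA drive differentiation from fibroblast-like precursors, which give up much of their matrix and precursor programme as lipid genes rise. Adipocytes float because their lipid makes them light. Adipocytes formed in a dish have small droplets, lack a circulation and see the hormones and nutrients of the medium.

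The preparations differed. RNA of the floating cells was purified with QIAzol and 2 ng was taken into 5 µl of lysis buffer, whereas cultured wells were lysed directly in 20 µl of buffer and 5 µl was used. The floating libraries held 5932453 and 7459969 counts, and the cultured ones 1841664 to 2606360. Cell source, RNA purification, toxin and depth all follow the same split and cannot be told apart. At equal depth (1841664 counts) the floating libraries showed 14716 and 15070 genes and the cultures 14875 to 15145. Mitochondrially encoded transcripts took 1.86% and 2.10% of the counts in the floating libraries and 6.05% to 7.26% in the cultures. Every pair of replicates differed by more than sampling noise, with a chi-square per degree of freedom of 25.7 for the floating pair and 2.32 to 3.23 for the culture pairs. This measure grows with depth, so the 2 groups' values cannot be compared directly. The test below took a shared estimate of the spread from floating and cultured libraries, most of them cultures. A wider spread of the floating pair would be understated by it. Levels below are CPM, the counts of a gene scaled to the same total in every library, and fold changes are log2 values of floating cells minus the mean of the VmSC4 and VmSC5 cultures from edgeR's quasi-likelihood test with Benjamini-Hochberg adjustment over all genes tested. In such bulk samples, fewer cells of a type and less RNA per cell cannot be told apart.

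Of 10682 genes tested, 3988 (37.3%) were higher and 3359 (31.4%) lower in floating cells at an adjusted p under 0.05. A large difference, meaning an adjusted p under 0.05 and at least a 4-fold change, was found for 1196 genes higher (11.2%) and 870 genes lower (8.14%), so a share of a gene list has to be read against these backgrounds. The median of all genes tested was 0.11 on the log2 scale. The gene lists were chosen with earlier results of these data known, so a list's share or median is a description and not independent support. Without the low-count filter, 2204 genes passed the large difference as higher in floating cells. A gene with no count on one side passed this filter through the other side alone, so its direction was fixed beforehand.

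The floating cells were labelled adipocytes and the cultured cells stromal cells under adipogenic differentiation, and both expressed the defining adipocyte genes. Adiponectin (Adipoq), a hormone made by adipocytes, stood at 7381 and 5251 CPM in the floating libraries and at 4921, 5161 and 5668 CPM (lowest, median, highest) in the 6 cultures. The groups overlapped, with a log2 fold change of 0.18 (SE 0.13, edgeR adjusted p = 0.238). This call turned on the settings: by total counts alone the adjusted p was 0.0424, and without floating replicate 3 it was 0.000137 with a log2 fold change of 0.44, while without floating replicate 2 the value was -0.15. Pparg measured 191 and 242 CPM against 119.7, 126 and 141 CPM, higher in both floating libraries than in any culture (0.64, SE 0.11, edgeR adjusted p = 0.000101). Cebpa, a list member chosen after its values were seen, was likewise higher (119.8 and 126 CPM against 52.4 to 71.5 CPM, log2 fold change 0.86, SE 0.14). The 30 genes of the adipocyte identity list summed to 70218 and 71654 CPM in floating cells and 74673 to 86169 CPM in culture. 14 of them rose and 12 fell, beside 37.3% and 31.4% of all genes, with a median of 0.22. A large difference was seen in 4 upward (the transcription factor Klf15, Pck1, Dgat2 and Plin1) and 2 downward (Fabp5 and Agpat2). Klf15, which glucocorticoids induce, was at 107 and 166 CPM against 0.534, 3.35 and 5.59 CPM (5.35, SE 0.25, edgeR adjusted p = 7.23e-11). Among members that did not pass the test, the glucose transporter Slc2a4 was at 328 and 264 against 220.5 to 249 CPM, and the fatty acid activating Acsl1 at 2516 and 2389 against 1694 to 2599 CPM.

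The secreted and depot-typical genes of white fat set the groups apart. Of the 15 white fat genes, 13 rose and 2 fell in floating cells, 8 of the former by a large difference. Their median log2 fold change was 3.09 beside 0.11 for all genes. This list too was chosen with earlier results of these data known. Leptin (Lep, chromosome 6, 29060220 to 29073877 in GRCm38), the hormone that reports fat stores to the brain, was at 1446 and 1742 CPM in the floating libraries. The cultures held 2.58, 4.32 and 7.29 CPM of Lep. The groups lay far apart, with a log2 fold change of 8.28 (SE 0.15, edgeR adjusted p = 2.73e-15).

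Adipsin (Cfd, chromosome 10, 79890853 to 79892655), a complement protease secreted by fat and singled out after its values were seen, reached 27703 and 17824 CPM in floating cells. In culture it was 108, 122 and 159 CPM, a log2 fold change of 7.39 (SE 0.17, edgeR adjusted p = 1.62e-13). Neuronatin (Nnat), an imprinted membrane protein of the endoplasmic reticulum, measured 1014 and 662 CPM against 0.543 to 1.72 CPM (9.22, SE 0.22). Cyp2e1, a drug- and ketone-metabolising cytochrome, was at 6924 and 3328 CPM against 3.74, 28.7 and 81.7 CPM, and its level differed by more than 1.5 times between the floating libraries. The WNT antagonist Sfrp5, at 28.3 and 50.1 CPM, had no count in any of the 6 cultures. With a floor of 3 counts over those cultures, Sfrp5 was at least 177-fold higher in floating cells.

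Not all adipokines pointed that way. Of 18 adipokines tested among 20, 9 rose and 7 fell, 6 and 5 of them by a large difference, and the median was 0.35. The shares of all genes were 37.3% and 31.4%, and 11.2% and 8.14% by a large difference. Fgf21, a fasting and stress hormone, was at 1.01 and 0.268 CPM in floating cells and 38.6, 46.4 and 55.1 CPM in culture (-6.30, SE 0.36, edgeR adjusted p = 5.79e-10). Lipocalin 2 (Lcn2), an iron-siderophore binding protein, was at 5.06 and 4.83 against 21.1 to 67.5 CPM (-3.01, SE 0.26). Chemerin (Rarres2) was at 116 and 117 against 286 to 868 CPM (-2.37, SE 0.22). All 3 were higher in every culture than in both floating libraries. Exons of Rarres2 overlap those of Lrrc61 on the other strand, and whether counting used strand is not given in the sources used here.

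**Figure D1:**
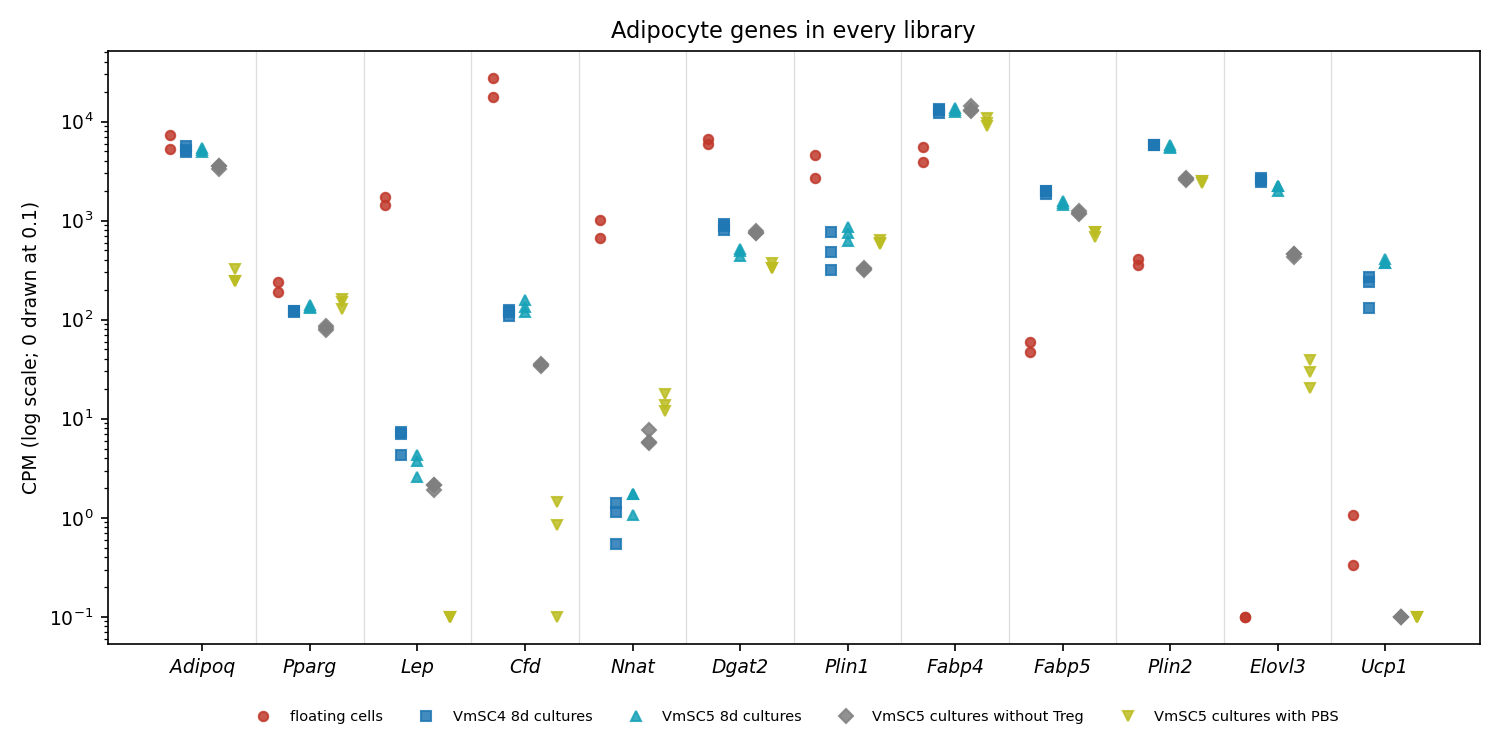
CPM on a log axis (0 drawn at 0.1) of 12 adipocyte genes in each library of floating cells, of the VmSC4 and VmSC5 8d cultures, and of 2 further sets of VmSC5 cultures; each point is 1 library. Lep, Cfd, Nnat, Dgat2 and Plin1 stand above every culture in both floating libraries, while Fabp4, Fabp5, Plin2 and Elovl3 stand below, and Ucp1 is high in the 8d cultures only among these groups.

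Lipid handling was split by step. Perilipin 1 (Plin1), the coat protein of large droplets that gates lipolysis, was at 2686 and 4567 CPM in floating cells and at 319, 688 and 864 CPM in culture (2.42, SE 0.29, edgeR adjusted p = 0.000165). Perilipin 2 (Plin2), the coat of small droplets in many cell types, was at 413 and 359 CPM against 5469.6, 5745 and 5793 CPM. Its groups did not overlap, and the log2 fold change was -3.98 (SE 0.14, edgeR adjusted p = 2.2e-12). Plin5, which ties droplets to mitochondria, was also lower (23.4 and 22.1 against 98.2 to 220.1 CPM). Of 13 droplet proteins tested among 16, 2 rose and 10 fell, with 1 and 4 large and a median of -1.34. This did not hold against the other culture sets of the series. Against VmSC5 cultures without Treg 5 of 12 rose and 5 fell (median 0.21), where 26.6% of all genes rose and 26.5% fell. Against VmSC5 cultures with PBS 7 of 11 rose and 3 fell (median 0.62), where 28.7% of all genes rose and 26.3% fell.

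In triglyceride synthesis, 6 of 14 genes rose and 5 fell, near the 37.3% and 31.4% of all genes. By a large difference 4 rose and 2 fell, beside 11.2% and 8.14% of all genes. Dgat2, which adds the last fatty acid, was at 6666 and 5944 CPM against 442, 657 and 923 CPM, all floating values above all cultures (3.18, SE 0.10, edgeR adjusted p = 9.75e-13). Pck1, which makes the glycerol backbone from lactate and amino acids, was at 1571 and 1278 against 41.3 to 63.8 CPM (4.60, SE 0.13), and the monoacylglycerol acyltransferase Mogat1 at 73.8 and 43.0 against 0 to 3.01 CPM. Upstream in the pathway, the acyltransferase Agpat2, needed for fat depots to form, was lower at 2362 and 1774 CPM against 9986, 10687 and 11795 CPM (-2.49, SE 0.15, edgeR adjusted p = 8.18e-10), as was Agpat3 (-2.64, SE 0.13). Agpat2 shares exon sequence with Egfl7, an endothelial gene on the other strand.

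Fatty acid synthesis had 6 of 18 genes higher and 7 lower, near the 37.3% and 31.4% of all genes, and a median of 0.01. It had 4 large differences, all downward. Among them were the desaturases Fads2 (14.0 and 16.1 against 135 to 147 CPM) and Scd2 (75.5 and 136 against 559.8 to 747 CPM) and the acetate-activating Acss2 (-2.74, SE 0.12). Among 19 lipolysis genes and their receptors tested of 21, 12 rose and 6 fell, with 2 large. The beta-3 adrenergic receptor Adrb3, which starts lipolysis, was at 726 and 538 CPM against 339 to 424 CPM (0.60, SE 0.13, edgeR adjusted p = 0.000731), and the natriuretic peptide clearance receptor Npr3 at 73.5 and 180.3 against 8.14 to 21.1 CPM (3.09, SE 0.28).

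The fatty acid carriers were lower. Fabp4, the main carrier of adipocytes, was at 5509.5 and 3889 CPM against 12336, 13059 and 13713 CPM (-1.57, SE 0.15, edgeR adjusted p = 2.05e-07). Its relative Fabp5 was at 60.0 and 47.6 CPM against 1453, 1725 and 2003 CPM (-5.10, SE 0.17, edgeR adjusted p = 9.9e-13). Neither gene's groups overlapped, and the gap of Fabp5 was wider. Over the fatty acid uptake list of 12 genes, 3 rose and 6 fell, beside 37.3% and 31.4% of all genes, with a median of -0.48. The member with the largest rise, Gpihbp1, is made by capillary endothelium and had 1184 counts in floating cells and 2 in the cultures, a 579.8-fold ratio with a counting interval of 160.1 to 4793. Endothelial markers were raised in the same libraries, and their part was not tested.

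Thermogenic genes were lower in floating cells, and the defining ones were near 0 there. Ucp1 (chromosome 8, 83290352 to 83298452), the uncoupling protein of brown and beige fat, was at 0.337 and 1.07 CPM in the floating libraries, 10 counts in all. In the cultures it was at 130.1, 322 and 411 CPM, for a log2 fold change of -8.63 (SE 0.45, edgeR adjusted p = 2.08e-08). All 3 VmSC5 cultures (411, 373 and 374 CPM) lay above all 3 VmSC4 cultures (271, 130.1 and 239 CPM). In the edgeR test between these populations in the same fit, however, Ucp1 did not reach an adjusted p under 0.05. Cidea, a droplet protein typical of brown fat, was at 1.35 and 0.670 CPM against 31.8, 92.3 and 144 CPM (-6.47, SE 0.43, edgeR adjusted p = 3.51e-08).

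Elovl3, an elongase of very long fatty acids induced in cold-exposed brown fat, had no count in either floating library and 1981, 2358 and 2719.9 CPM in culture, at least 10626-fold lower in floating cells with a floor of 3 counts over both of them. An exon of Elovl3 overlaps one of Pitx3 on the other strand. The proton channel Otop1, with 2 counts in floating cells and 422 in culture, was 215-fold lower (counting interval 59.3 to 1785), and Cpt1b, which brings fatty acids into muscle and brown fat mitochondria, was at 0.337 and 0.268 against 14.7 to 24.2 CPM. Of 25 thermogenic genes, 18 passed the low-count filter, 16 fell (14 by a large difference) and 1 rose, the precursor factor Ebf2 (0.47, SE 0.20, edgeR adjusted p = 0.0494). The brown fat regulator Prdm16 did not pass the test (4.38 and 5.23 against 0.543 to 6.41 CPM). The median of those tested was -4.60, or -3.98 with the 2 genes that had no count on one side set at their bound. Those 2 genes passed the low-count filter through the cultures alone and could only come out lower.

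The levels of Ucp1 and Cidea differed among the culture sets. The series holds 2 other sets of VmSC5 cultures under adipogenic differentiation, 3 libraries without Treg and 3 libraries with PBS, for which no number of days is in the titles. They held 4648878 to 6520542 and 1172940 to 2078534 counts. Their adipocyte identity lists summed to 72645 to 75540 CPM without Treg and to only 37414 to 39746 CPM with PBS. The floating libraries held 70218 and 71654 CPM. Ucp1 had no count in any of these 6 libraries, and Cidea no more than 0.215 CPM. Elovl3 was at 464, 459 and 429.8 CPM without Treg and at 39.4, 29.3 and 20.5 CPM with PBS, still above both floating libraries. Against the cultures without Treg, 10 of 13 thermogenic genes tested were lower in floating cells and the median was -1.17 (26.5% of all 12584 genes tested were lower there). Against the PBS cultures the list was split, with 4 of 10 lower (2 large), 3 higher (3 large) and a median of -0.92. Of all 11015 genes tested there, 26.3% were lower and 28.7% higher. The 3 comparisons share the floating libraries.

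Mitochondrial genes were lower in floating cells than in the 8d cultures. All 34 nuclear genes of the respiratory chain list fell, with a median of -1.60, and 7 of them by a large difference. Cytochrome c (Cycs), the mobile electron carrier, was at 41.6 and 33.6 CPM against 455, 479.8 and 499.9 CPM (-3.78, SE 0.15, edgeR adjusted p = 9.47e-12). Of the others, the complex II subunit Sdhd was at 60.0 and 37.9 against 434 to 606 CPM, and the complex I subunit Ndufa1 at 113 and 48.5 against 377 to 454 CPM. No culture was as low as a floating library for these genes.

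The 11 mitochondrially encoded genes tested of 13 also fell, 6 by a large difference, with mt-Nd1 at 3919 and 4211 CPM against 22408 to 27560.3 CPM (-2.73, SE 0.13). The low-count genes mt-Nd3 (1.18 and 0.268 against 17.9 to 31.0 CPM) and mt-Co2 (1.85 and 2.14 against 17.6 to 26.7 CPM) showed larger folds, and reads of such genes can be shared with nuclear copies. In fatty acid oxidation, 21 of 24 genes fell, 10 by a large difference, and 1 rose. The peroxisomal thiolase Acaa1b, which has a close paralog, was at 122 and 107 CPM against 2537, 3025 and 3452 CPM (-4.83, SE 0.16, edgeR adjusted p = 1.08e-12), and the carnitine carrier Slc25a20 at 70.5 and 49.6 against 421 to 469 CPM. Against the PBS cultures the direction was the opposite: 18 respiratory chain genes and 17 of 22 oxidation genes were higher in floating cells, where 28.7% of all genes were, and 2 of each list were lower. Those cultures also held a lower adipocyte identity sum (37414 to 39746 CPM) than the floating libraries (70218 and 71654 CPM), and its part was not tested. Acaa1b itself was higher in floating cells than in the cultures without Treg (0.68) and with PBS (1.84).

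Glycolysis and hypoxia genes were lower as well, with 22 of 27 tested lower (17 large), 2 higher and a median of -2.63. The oxygen-sensing hydroxylase Egln3, a target of hypoxia-inducible factors, was at 7.92 and 5.90 CPM against 287, 344 and 378 CPM (-5.72, SE 0.20, edgeR adjusted p = 1.98e-12). The aldolase Aldoc (0 and 0.670 against 23.0 to 68.3 CPM) and the lactate exporter Slc16a3 (2.02 and 1.74 against 35.3 to 76.9 CPM) followed. Pfkfb3, whose product switches glycolysis on, went the other way at 1883 and 1861 CPM against 82.0, 101 and 114 CPM (4.14, SE 0.12, edgeR adjusted p = 3.79e-13). The list's median was -0.44 against the cultures without Treg and -0.18 against those with PBS, where Egln3 was not lower in floating cells (0.80, edgeR adjusted p = 0.178).

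Cholesterol synthesis was lower for 17 of 22 genes (11 large, median -1.93) and higher for 3. Dhcr7, an enzyme of the last steps, was at 23.3 and 19.8 CPM against 254, 386 and 438 CPM (-4.20, SE 0.23), and the pathway enzymes Hsd17b7 (-4.04, SE 0.17) and Mvd (-3.91, SE 0.16) were lower too. All 3 were also lower than in the other culture sets (Dhcr7 at -3.15 without Treg and -1.11 with PBS, edgeR adjusted p = 2.33e-06 and 0.00276). Insulin signalling genes leaned upward, 12 of 20 higher (4 large) and 2 lower. The receptor substrate Irs1 was at 107 and 154 CPM against 12.9 to 19.8 CPM (2.84, SE 0.17, edgeR adjusted p = 1.21e-09), the kinase subunit Pik3r1 at 149 and 259 against 26.7 to 40.2 CPM, and the receptor inhibitor Grb14 at 81.4 and 61.1 against 5.37 to 29.2 CPM. Pik3r1 showed no such rise against the cultures without Treg (-0.17, edgeR adjusted p = 0.496).

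**Figure D2:**
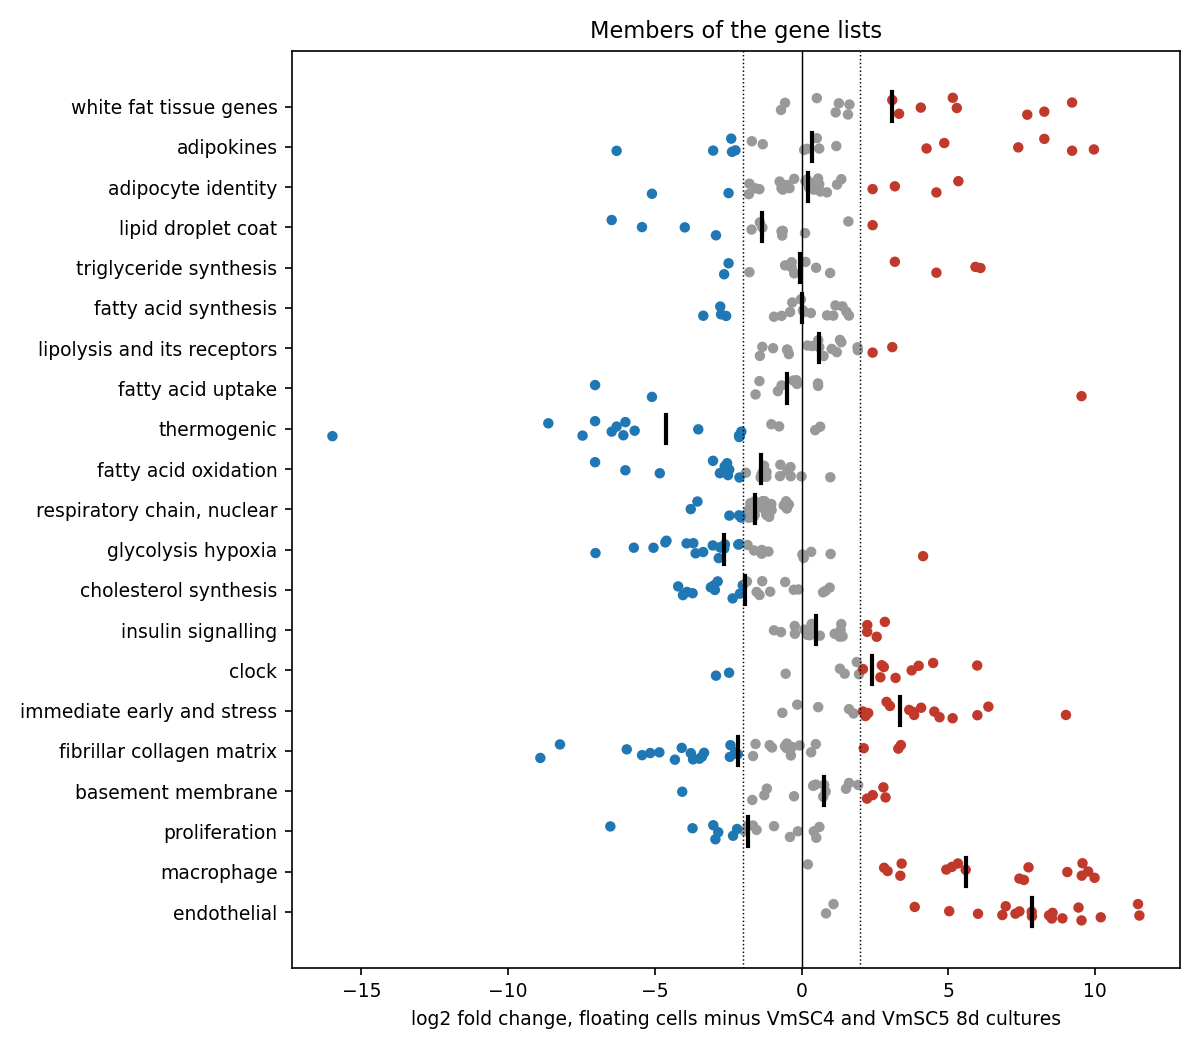
Log2 fold change of floating cells minus the VmSC4 and VmSC5 8d cultures for every tested member of 21 gene lists; each point is a gene, red or blue where it passed the large difference, the black bar is the list's median and the dotted lines mark a 4-fold change. The thermogenic, fatty acid oxidation, respiratory chain and matrix medians lie left of 0, and the white fat, clock, immediate early, macrophage and endothelial medians lie right of 0.

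Genes that respond fast to stimuli were higher in floating cells. Of 20 immediate early and stress genes tested among 24, 18 rose, 15 by a large difference, and 1 fell, with a median of 3.34. The AP-1 subunit Fosb was at 132 and 250.1 CPM against 0, 0.192 and 0.860 CPM (9.01, SE 0.37, edgeR adjusted p = 7.37e-11). Egr1, a zinc finger factor induced by growth signals, was at 715 and 552 CPM against 4.81, 9.94 and 11.6 CPM (5.99, SE 0.18, edgeR adjusted p = 8.2e-13). The orphan receptor Nr4a1 was at 289 and 280.2 against 1.15 to 9.46 CPM, again with no overlap. The list's medians were 2.84 and 3.20 against the cultures without Treg and with PBS. How the tissue was taken apart is not given in the sources used here, and preparation and group cannot be told apart.

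The circadian clock list had 13 of 16 tested genes higher (9 large), 2 lower, and a median of 2.39, with 2.03 and 2.59 against the other culture sets. The clock repressor Per2 was at 68.6 and 62.5 CPM against 1.63, 2.49 and 4.73 CPM (4.49, SE 0.23, edgeR adjusted p = 1.43e-10). The nuclear receptor Nr1d2 was at 24.9 and 91.0 against 0.534 to 4.73 CPM, differing between the floating libraries themselves. Bhlhe41, a repressor that binds the same E-box as the clock activators, was lower at 15.2 and 17.4 CPM against 92.1 to 137 CPM (-2.92, SE 0.15). The labels give no hour of collection for either preparation.

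Glucocorticoid targets rose for 11 of 15 genes and fell for 3, with a median of 1.44. Among the largest rises were Sult1a1, a sulfotransferase (227 and 212 against 5.34 to 10.2 CPM), the zinc finger factor Zbtb16 (33.7 and 61.8 against 1.53 to 5.16 CPM) and the phosphatase Dusp1 (718 and 712 against 85.2, 89.0 and 94.6 CPM). Exons of Sult1a1 and Dusp1 overlap those of Sgf29 and Ergic1 on the other strand. The metal-binding Mt1 (-2.03, SE 0.21) and Mt2 (-2.37, SE 0.21) were lower. Against the cultures without Treg the list's median was -0.15, and Sult1a1 (0.14, edgeR adjusted p = 0.406) and Zbtb16 (-0.15, edgeR adjusted p = 0.607) did not pass the test. Dusp1 stayed higher there (1.83, edgeR adjusted p = 7.71e-06).

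The E-box bound by the clock activators and the cAMP response element are short, so their letters can be looked up in the 250 bases before the start of RefSeq genes (GRCm38.p6). Of the lists, 14 of 17 clock genes and 20 of 24 immediate early genes had an entry. CACGTG was found for 5 of 14 clock genes (35.7%), 4 of 20 immediate early genes (20%) and 1854 of 27025 genes in all (6.86%). TGACGTCA was found for 1 of 14, 2 of 20 and 478 of 27025 (7.14%, 10% and 1.77%). Both motifs read the same on either strand, and in the windows shown they do not overlap. The 3 windows below show them in genes that moved in opposite directions, with the motifs in capitals, 5′ to 3′ on the gene's strand. Per1, a clock repressor (169 and 130.0 against 50.5 to 62.0 CPM), was chosen after its values were seen.
Per1, chr11:69098699-69098948, plus strand: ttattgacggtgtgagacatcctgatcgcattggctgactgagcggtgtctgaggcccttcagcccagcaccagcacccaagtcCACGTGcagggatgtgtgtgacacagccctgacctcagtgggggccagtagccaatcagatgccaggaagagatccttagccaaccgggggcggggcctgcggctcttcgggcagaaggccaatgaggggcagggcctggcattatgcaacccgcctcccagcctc
Bhlhe41, chr6:145865421-145865670, minus strand: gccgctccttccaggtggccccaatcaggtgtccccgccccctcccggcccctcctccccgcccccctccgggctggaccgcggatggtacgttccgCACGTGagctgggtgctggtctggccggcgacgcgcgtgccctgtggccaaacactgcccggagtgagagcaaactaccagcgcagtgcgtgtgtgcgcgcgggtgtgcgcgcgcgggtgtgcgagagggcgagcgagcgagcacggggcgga
Dusp1, chr17:26508473-26508722, minus strand: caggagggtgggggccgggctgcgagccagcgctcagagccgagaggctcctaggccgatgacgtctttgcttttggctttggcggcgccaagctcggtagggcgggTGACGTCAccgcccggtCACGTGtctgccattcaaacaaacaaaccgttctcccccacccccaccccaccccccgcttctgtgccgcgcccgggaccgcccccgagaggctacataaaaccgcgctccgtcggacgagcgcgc
Per1 and Dusp1 were higher in floating cells and Bhlhe41 lower, and each holds the E-box letters. A match of letters is a description of the window.

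Many matrix genes of precursor cells were lower in floating cells, but not most fibrillar collagens. Col1a1 (-0.50), Col3a1 (0.49), Col5a1 (-0.51) and Col5a2 (-0.36) did not pass the test (edgeR adjusted p from 0.0557 to 0.397). Col1a2 (-1.09) and Col5a3 (-0.56) were lower. Of 33 fibrillar matrix and remodelling genes, 23 fell (17 large) and 4 rose (3 large), with a median of -2.17. The metalloprotease inhibitor Timp1 was at 0.506 and 1.88 CPM against 292, 363 and 421 CPM (-8.23, SE 0.31, edgeR adjusted p = 1.59e-11). The microfibril protein Mfap5 was at 2.36 and 5.36 CPM against 142, 153 and 186 CPM (-5.44, SE 0.24, edgeR adjusted p = 3.46e-11). The stromelysin Mmp3 had no count in floating cells and 4.73 to 62.2 CPM in culture, at least 123-fold lower.

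The inhibitor Timp3 (107 and 127 against 7.45 to 15.3 CPM, log2 fold change 3.30, SE 0.19) and thrombospondin 1 (Thbs1, 153 and 565 against 62.4 to 92.0 CPM) went the other way. Against the cultures without Treg and with PBS the matrix medians were -2.46 and -3.28, all below 0. Exons of Timp3 overlap those of Syn3 on the other strand. Basement membrane genes were mostly higher against the 8d cultures: 13 of 18 tested rose (4 large) and 5 fell (1 large). The adhesion protein Nid2 was at 173 and 306 CPM against 23.2 to 34.2 CPM (2.86, SE 0.17), perlecan (Hspg2) at 737 and 1365 against 129 to 147 CPM (2.79, SE 0.15), and the laminin chain Lama5 at 29.3 and 33.0 against 3.26 to 8.82 CPM. The basement membrane median turned to -0.54 and -0.53 against the other culture sets. Endothelial markers summed to 1101 and 1276 CPM in the floating libraries, and their part in this list was not tested.

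Precursor markers were mixed. Of 18 committed preadipocyte genes, 15 were tested, 10 fell (7 large) and 5 rose (2 large). The precursor receptor Pdgfra was at 1.18 and 1.47 CPM against 25.3, 27.7 and 33.1 CPM (-4.45, SE 0.30, edgeR adjusted p = 3.59e-09), and the adhesion receptor Icam1 at 3.54 and 3.75 against 15.0 to 24.0 CPM (-2.58, SE 0.28, edgeR adjusted p = 9.86e-07). The retinoic acid enzyme Aldh1a3 (0.843 and 0 against 9.03 to 40.3 CPM) and the surface protein Ly6a (33.0 and 26.0 against 225 to 590.0 CPM) were lower too. Meox2 (17.2 and 24.8 against 0 to 1.29 CPM), a homeobox factor also found in vessels, and the basement membrane collagen Col15a1 (2.23, SE 0.15) were higher.

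Of the DPP4+ interstitial progenitor list, 12 of 20 genes were tested, 5 rose and 4 fell. These counts were near the 37.3% and 31.4% of all genes. Dpp4 (0 and 1.88 against 0.543 to 4.73 CPM) and Pi16 (0 and 1.07 against 1.09 to 6.03 CPM) were too low to be tested. Cd248, a stromal surface protein, was at 4.05 and 8.04 against 93.4 to 140.4 CPM (-4.33, SE 0.25), while the insulin-like growth factor binding Igfbp5 (101 and 282 against 1.29 to 7.06 CPM) and the TGF-beta receptor Tgfbr2 (2.28, SE 0.17) were higher. Proliferation genes fell for 12 of 17 tested of 25 (7 large), with a median of -1.83, and of -2.67 and -4.98 against the other culture sets.

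Markers of vessel, blood and immune cells were raised in the floating libraries. The 21 endothelial markers summed to 1101 and 1276 CPM there and to 82.5, 90.5 and 97.2 CPM in the 8d cultures, where 9 of them had no count in any library. All 20 tested were higher, 18 by a large difference, beside 37.3% and 11.2% of all genes. The 8 tested genes without a count in culture passed the low-count filter through the floating libraries alone and could only come out higher. Cdh5, the cadherin of endothelial junctions, was at 90.4 and 132 CPM and Ptprb, a vascular phosphatase, at 74.5 and 156 CPM, and neither had a count in the cultures. Taking 3 counts over the 6 cultures as the floor, Cdh5 was at least 496-fold and Ptprb at least 525-fold higher. Their median was 7.85, or 6.43 with the 8 genes without a count in culture at their bound. The endothelial receptor kinase Tie1 was at 42.1 and 49.7 CPM, at least 203-fold higher.

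The 22 macrophage markers summed to 567 and 662 CPM in floating cells and to 13.8, 23.0 and 31.0 CPM in the 8d cultures, with 9 at 0 in all of the latter. 16 of 17 tested passed the large difference, all higher, with a median of 5.60, or 5.33 with 5 genes at their bound. Those 5 genes passed the low-count filter through the floating libraries alone and could only come out higher. The protease Ctss (31.2 and 48.4 CPM), the lysosomal Laptm5 (34.6 and 33.4 CPM) and the complement gene C1qc (32.9 and 26.5 CPM) had no count in any 8d culture, at least 178-fold, 148-fold and 128-fold higher in floating cells. The other culture sets, by contrast, held 365 to 433 CPM without Treg and 420.0 to 440.4 CPM with PBS. The endothelial sums there were 186 to 219 and 280.0 to 310.3 CPM.

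MHC class II and dendritic cell markers summed to 399 and 461 CPM against 54.9 to 99.9 CPM. 6 of 8 tested rose and 2 fell. The class II chain H2-Aa was at 57.1 and 51.2 CPM with no count in culture (at least 235-fold), the invariant chain Cd74 at 156 and 185 CPM against 0 to 1.60 CPM (8.12, SE 0.31, edgeR adjusted p = 9.56e-12), and the class II chain H2-Eb1 at 43.8 and 37.8 against 1.92 to 5.88 CPM. Of the members that fell, H2-DMb1, whose product helps load class II, was at 3.03 and 2.82 against 14.9 to 27.9 CPM. H2 genes form a family whose reads the counting could split.

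The erythrocyte and platelet list summed to 85.7 and 87.0 CPM against 1.92 to 5.59 CPM, among them the beta-globin Hbb-bs (42.0 and 37.4 CPM, no count in culture), which has a near copy. Pericyte and smooth muscle genes were split, 7 higher and 5 lower of 14 tested, beside 37.3% and 31.4% of all genes. The pericyte marker Rgs5 was at 22.8 and 63.5 CPM with 2 counts in the cultures, a 298-fold ratio (counting interval 82.2 to 2468), and the adhesion molecule Mcam (364 and 397 against 10.7 to 28.4 CPM) and the actin-binding Synpo2 (173 and 299 against 9.78 to 18.9 CPM) were higher too. In the other direction, actin of smooth muscle and activated stroma (Acta2) was at 76.2 and 98.3 against 259 to 516 CPM (-2.19, SE 0.19) and desmin (Des) at 14.2 and 19.3 against 59.3 to 91.7 CPM. Mesothelial genes were higher for 2 and lower for 4 of 9 tested among 18, beside the same shares of all genes. Some members too low to be tested had more counts in floating cells. Summed over libraries, Msln had 99 counts there and 1 in the 8d cultures, Muc16 130 and 3, and Gpm6a 81 and 2. The list as a whole summed to 71.3 and 168 CPM in floating cells and to 165 to 255 CPM in the 8d cultures. The mesothelial uroplakin Upk3b was at 12.3 and 41.4 CPM against 0 to 1.92 CPM, and the growth factor binding Igfbp6 at 4.38 and 12.3 against 98.9 to 164 CPM.

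Neutrophil and epididymal lists had no gene above the low-count filter and summed to 12.3 and 14.2 CPM, and to 1.34 and 1.35 CPM, in floating cells. T and NK cell markers summed to 1.35 and 2.14 CPM there, with 10 of 19 at 0 in both floating libraries, and the only one tested was lower in floating cells. The mast cell list had 1 gene tested (1 higher) and summed to 14.7 and 18.8 CPM in floating cells, and the Schwann cell and nerve list 3 (2 lower), with 20.6 and 33.8 CPM. How far any of these cells contribute to the adipocyte, clock or stress genes was not tested.

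**Figure D3:**
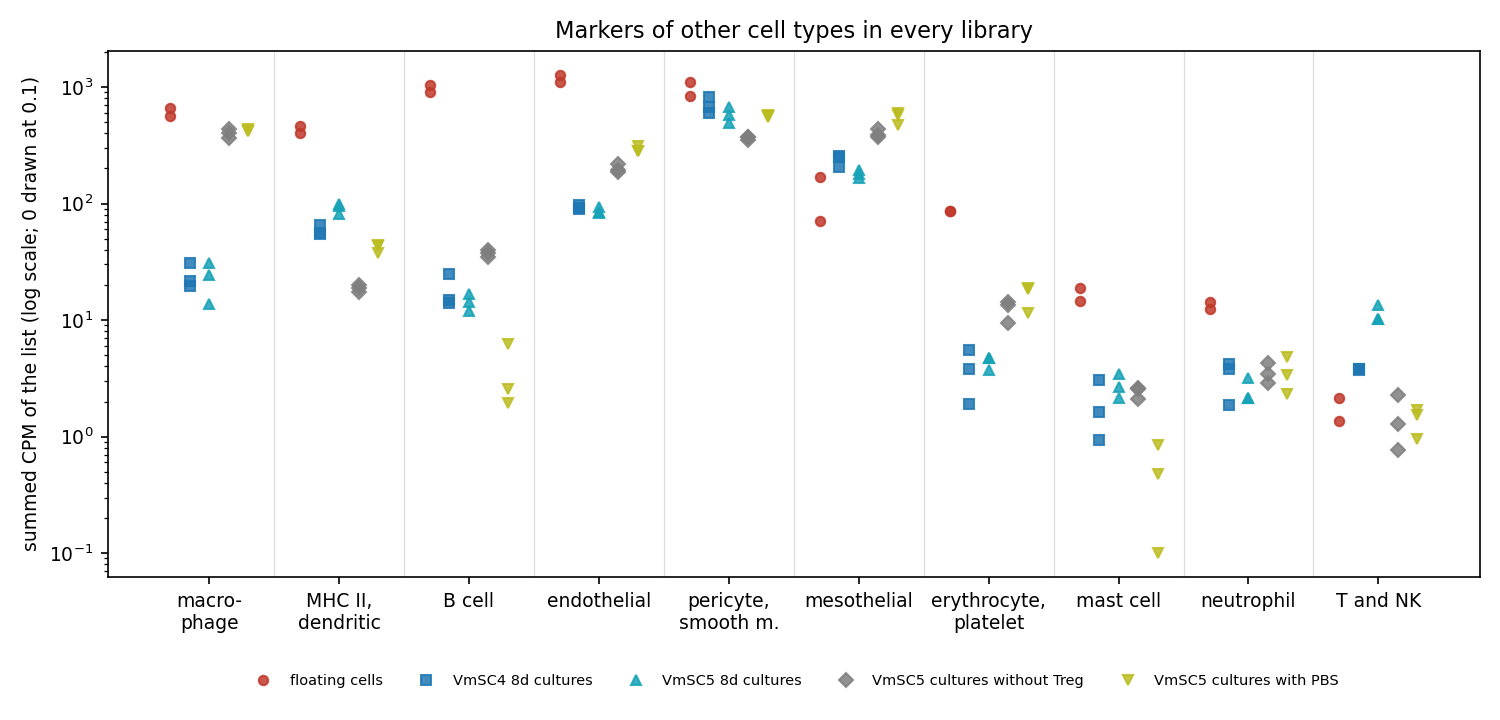
Summed CPM (log axis, 0 drawn at 0.1) of 10 marker lists for other cell types, 1 point per library, in floating cells, the 8d cultures and 2 other sets of VmSC5 cultures. The floating libraries lie above all 12 cultures for every list but the mesothelial and the T and NK cell lists. The macrophage sums of the 2 other culture sets lie below the floating ones and far above those of the 8d cultures.

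The 10 genes with the largest rise, predicted genes and immunoglobulin segments apart, were Ptprb, Cdh5, H2-Aa, F13a1, Tie1, Aplnr, Hbb-bs, Ctss, Retnla and Sfrp5. All had no count in the 8d cultures, so the fitted order rests on the level in floating cells. F13a1, a transglutaminase of tissue macrophages, was at 37.8 and 59.4 CPM, the apelin receptor Aplnr at 48.9 and 39.1 CPM and the resistin-like Retnla, which has close relatives, at 35.4 and 42.9 CPM. In the cultures without Treg F13a1 was at 53.3, 52.3 and 54.0 CPM.

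The 10 with the largest fall were Elovl3, Sptlc3, Aadac, Asic3, Bpifa6, Tubb2b, Lefty2, Sprr1a, Tubb3 and Tmem45a. Apart from Tmem45a, a transmembrane protein gene with 2 counts, none had a count in either floating library. The sphingolipid enzyme Sptlc3 was at 341, 359 and 408 CPM in culture (at least 1638-fold) and the esterase Aadac at 245, 253 and 274 CPM (at least 1148-fold). The acid-sensing channel Asic3 (30.3 to 50.5 CPM), Bpifa6 (22.3 to 50.2 CPM), the TGF-beta family member Lefty2 (18.9 to 36.3 CPM), the cornified envelope gene Sprr1a (13.8 to 34.9 CPM) and the tubulins Tubb2b (26.2 to 37.3 CPM) and Tubb3 (13.4 to 26.9 CPM) were at least 95.3-fold lower. Tmem45a, at 66.4 to 104 CPM in culture, was 566-fold lower with a counting interval of 156 to 4681. Tubulins form a family of close copies.

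Against cultures without Treg, 8.42% of all genes were higher and 7.99% lower by a large difference, and against cultures with PBS 8.63% and 9.21%. At an adjusted p under 0.05 of any size, the shares were 26.6% and 26.5% without Treg, and 28.7% and 26.3% with PBS. Of the white fat genes, 11 of 15 and 11 of 15 tested were higher by a large difference, and of the matrix genes 19 of 33 and 24 of 33 lower. Set against the 2 other culture sets, the same floating libraries gave the same side for white fat genes (medians 3.47 and 6.36), clock, immediate early, endothelial, matrix and proliferation lists. Fatty acid synthesis, with a median of 0.01 against the 8d cultures, had 12 genes higher and 2 lower against PBS (median 1.58). Among lists whose median changed side against PBS, fatty acid uptake had 7 higher and 3 lower (0.81), and the DPP4+ progenitor list 3 and 10 (-2.07). Lep was at 1.91, 2.15 and 2.15 CPM without Treg and had no count with PBS, Cfd at 33.7, 35.6 and 34.8 CPM without Treg and 0, 1.44 and 0.853 CPM with PBS. Dgat2 was at 788, 753 and 755 CPM and at 334, 336 and 373 CPM in these sets, so that floating cells stood above every one of the 12 cultures for Lep, Cfd and Dgat2. Fabp5 and Plin2 were lower in floating cells in all 3 comparisons (Fabp5 -4.34 and -3.32, Plin2 -2.62 and -2.22 against the cultures without Treg and with PBS). Adipoq, for which the test against the 8d cultures was not passed, was higher than in the cultures without Treg (3574, 3595 and 3298 CPM, log2 fold change 1.00, SE 0.18) and far higher than with PBS (327, 243 and 244 CPM, 5.02, SE 0.23). Agpat2, lower against the 8d cultures, was higher against PBS (0.81, edgeR adjusted p = 0.00185). Plin5 (2.40, edgeR adjusted p = 0.000416) and Acss2 (1.39, edgeR adjusted p = 2.69e-05) turned in the same way. The PBS cultures held less of the adipocyte identity list (37414 to 39746 CPM) than the 8d cultures (74673 to 86169 CPM). Their DPP4+ progenitor sums were higher (1681 to 1863 against 444 to 507 CPM). The part of this in the turned values was not tested.

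**Figure D4:**
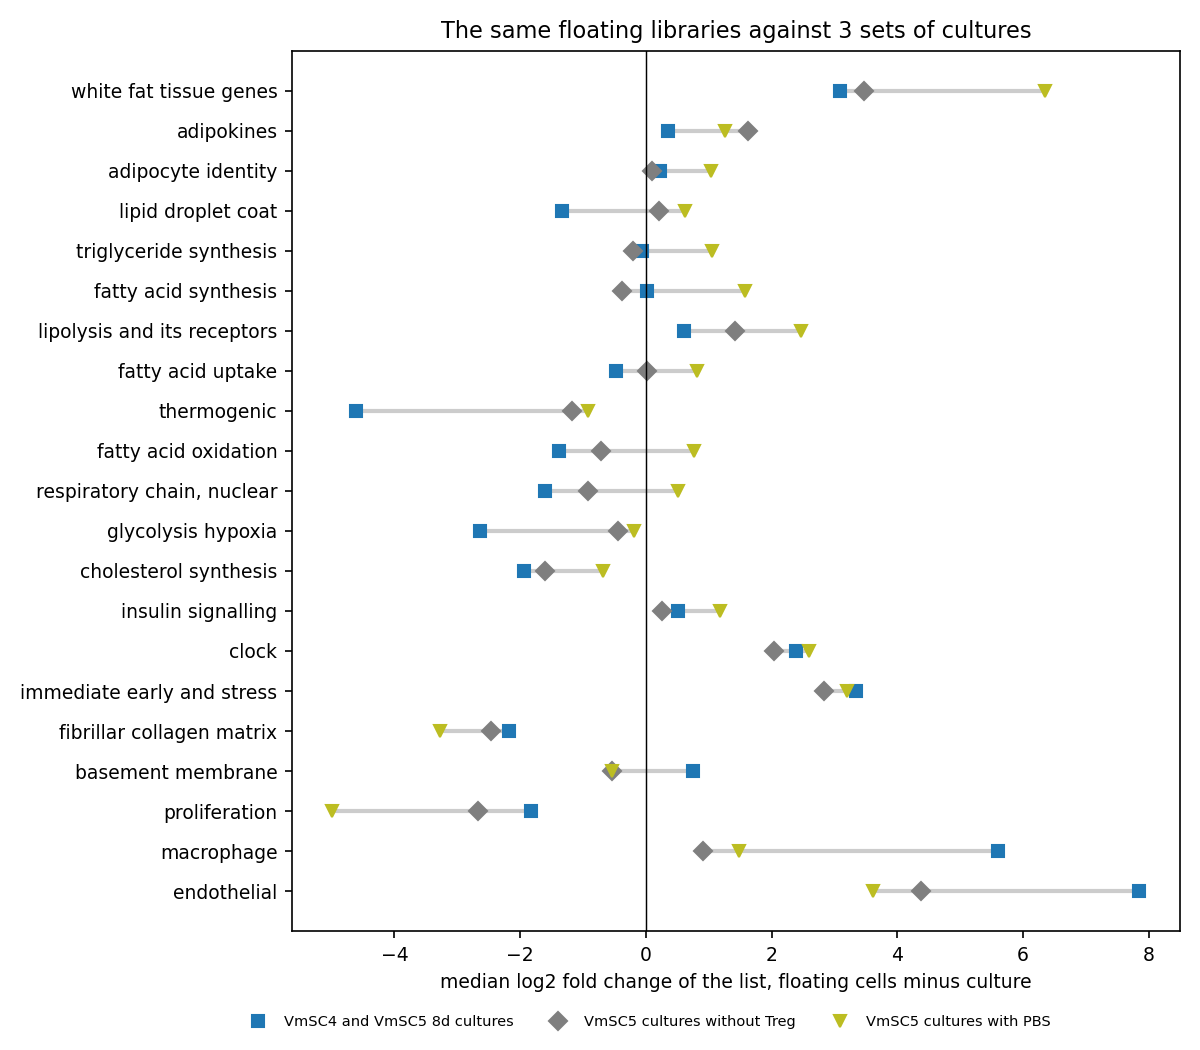
Median log2 fold change of 21 gene lists for the same 2 floating libraries against 3 sets of cultures: the VmSC4 and VmSC5 8d cultures (squares), VmSC5 cultures without Treg (diamonds) and VmSC5 cultures with PBS (triangles). The thermogenic, glycolysis and macrophage medians are nearer 0 against the other sets, and the respiratory chain, fatty acid oxidation and basement membrane medians change sign in at least 1 of them.

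Floating cells of Treg-depleted mice (Pparg-Tdt:Foxp3-DTR+ with toxin, 2 libraries of 7336742 and 7490677 counts), set against the same 8d cultures, gave 2080 genes higher (20.4%) and 1986 lower (19.5%), with 5.38% and 9.59% by a large difference. By a large difference, 8 of 14 white fat genes tested were higher and 11 of 17 thermogenic genes lower. Their Lep was at 355 and 110.1 CPM, Cfd at 40609 and 84416 CPM, Fabp5 at 42.2 and 98.7 CPM and Elovl3 at 0.267 and 3.54 CPM, and Ucp1 had no count, each on the same side of the 8d cultures as in the control floating cells. Library 3 of this group stood apart, with Pparg at 12.3 CPM and Plin1 at 366 CPM where library 2 had 241 and 2324 CPM. With library 2 alone, 3802 genes were higher and 3594 lower. Their endothelial markers summed to 64.2 and 117 CPM, around the range of the 8d cultures, but the sums were made up differently. None of the 21 markers was at 0 in both libraries, whereas 9 had no count in any 8d culture. Of 6 endothelial markers tested, 4 were higher (4 large) and 2 lower (1 large), with a median of 4.65. The medians of the white fat (2.39), clock (2.34) and immediate early (3.55) lists stayed above 0. Other lists did not keep their pattern: 3 of 34 respiratory chain genes were lower (median -0.22), basement membrane genes were higher for 1 and lower for 10 (-0.91), pericyte and smooth muscle genes for 1 and 7 (-2.34), and 5 of 13 droplet proteins were lower (-0.18). Both floating groups share the 8d cultures as their reference.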

How the data were processed

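Raw gene counts of polyA RNA libraries were deposited by the authors in 1 table. Reads were aligned with STAR 2.7.3a and counted with featureCounts on mm10, per the submitters' processing notes. Annotation release, strand setting and treatment of reads with several matches are not given in the sources used here. Groups came from the sample labels. Genes were kept with edgeR's filterByExpr (minimum count 10), scaled by TMM and tested with edgeR 4.0.16 (R 4.3.3), robust quasi-likelihood, 3 groups, floating minus the mean of both culture groups, with Benjamini-Hochberg adjustment. The steps were tested on simulated data. CPM divide a gene's count by the library total. A gene with no count on one side got a bound from 3 counts over that side, and 1 to 3 counts a 95% counting interval, which covers counting error only.

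The 8 libraries and the 39 gene lists were chosen with earlier results of these data known. Named were 10 set genes, from each list up to 3 genes each way with a large difference, 20 CPM on a side and no overlap between groups, and the 10 largest each way, plus members named only for their value. Gene positions are from GENCODE M21 (GRCm38). Exon overlap on the other strand is marked above for some genes only. Further named genes have it too, among them Nid2 (with Rtraf), Acss2 (with Ggt7 and Gss), Acaa1b (with Dlec1), Icam1 (with Gm47079) and Bhlhe41 (with Gm43909). Alternatives were RLE or no scaling, no mitochondrial genes, DESeq2 1.42.0, no filter, a replicate block, other groupings and culture sets, DTR+ floating cells, equal depth and each library left out. DTR+ library 2 alone was added after seeing the data.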

Additional observations from a re-analysis of the deposited data

Results flagged for a closer look

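For 5 named genes the gap between floating cells and cultures depended on which population had been cultured, by a test of the difference itself in the same edgeR fit. Aldh1a3, a retinoic acid enzyme, had a log2 fold change of -6.59 against VmSC4 and of -4.94 against VmSC5 cultures, a difference of -1.64 (SE 0.34, edgeR adjusted p = 0.0461). The stromelysin Mmp3 differed by -2.91 (edgeR adjusted p = 0.00059), with 45.1, 62.2 and 34.5 CPM in VmSC4 cultures, 7.31, 4.73 and 6.95 CPM in VmSC5 cultures and no count in floating cells. Lcn2 differed by -1.10 (edgeR adjusted p = 0.0372). The triglyceride enzyme Dgat2 had 2.75 against VmSC4 and 3.61 against VmSC5 cultures (difference -0.86, edgeR adjusted p = 0.00192). Grb14, an inhibitor of the insulin receptor, had 2.98 and 1.50 (difference 1.48, edgeR adjusted p = 0.0426). A negative difference means a lower level in VmSC5 than in VmSC4 cultures, and each of the 5 kept its direction against either population.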

How the results depend on the processing

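The counts of genes past the threshold stayed within 1.5 times under the other scalings, DESeq2, equal depth, either culture population alone and the other culture sets, apart from 2204 genes with a large difference upward when no low-count filter was used. With DTR+ floating cells there were 2080 genes higher, 1986 lower and 549 with a large difference upward. Leaving out 1 library at a time gave 3704 to 4451 genes higher, 3177 to 3788 lower, 1088 to 1647 with a large difference upward and 842 to 1073 downward. The floating cells and the cultures share replicate numbers 2 and 3 only, and deviations of same-numbered libraries correlated at -0.02 to 0.11, so the numbers were not read as pairs; a replicate block gave 3811 genes higher and 3296 lower, 1150 and 860 by a large difference. Scaling by total counts alone moved the median of all genes to 0.22.

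Single genes turned direction as follows, and the cause was not tested. Adipoq was at -0.15 without floating replicate 2 and at 0.44 without floating replicate 3. Against cultures without Treg, Acaa1b was at 0.68, Pik3r1 at -0.17, Zbtb16 at -0.15, Acta2 at 1.03, Oasl1 at 0.95, Zbp1 at 1.33, Ifit1 at 2.15 and F13a1 at -0.0011. Against cultures with PBS, Agpat2 was at 0.81, Plin5 at 2.40, Agpat3 at 0.078, Acss2 at 1.39, Acaa1b at 1.84, Egln3 at 0.80 and Bhlhe41 at 0.66. With DTR+ floating cells, Pparg was at -0.0095, Grb14 at -0.13, Mt1 at 0.036, Timp3 at -0.53, Hspg2 at -0.74, Lama5 at -1.26, Col15a1 at -0.86 and Zbp1 at 0.28, and with their library 2 alone, Lcn2 was at 0.33, Grb14 at -0.37, Hspg2 at -0.0078, Lama5 at -0.67 and Col15a1 at -0.30. Only 2 floating libraries, 1 preparation per group and the lower depth of the cultures limit every value.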

Other observations

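Both B cell genes that could be tested, Ighm and the light chain Igkc, were higher in floating cells. The B cell list summed to 901 and 1037 CPM in floating cells and to 12.0 to 24.9 CPM in the 8d cultures. Most of it was the immunoglobulin heavy chain Ighm (1009 and 884 CPM), while the B cell surface genes Cd79a (0.506 and 0.536 CPM) and Ms4a1 (0 and 0 CPM) were at or near 0. Igkc had 189 counts in floating cells and none in the cultures, at least 61.7-fold higher. It passed the low-count filter through the floating libraries alone and could only come out higher. Igkc was named here after its values were seen.

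Interferon-stimulated genes varied among the cultures. Of 23 tested genes of the type I interferon list, 2 were higher and 4 lower in floating cells, with a median of -1.27. Against VmSC5 cultures without Treg the list had 10 higher and 2 lower of 21 tested (1.08), and with PBS 6 and 1 of 14 (0.89). The shares of all genes tested were 26.6% higher and 26.5% lower without Treg, and 28.7% and 26.3% with PBS. The antiviral Ifit1 (picked once its values were known) measured 4.72 and 15.7 CPM in floating cells, 35.3, 3.84 and 12.1 CPM in VmSC4 and 264, 3.44 and 107 CPM in VmSC5 cultures. The VmSC5 libraries 1 and 3 stood far above library 2. The nucleic acid sensor Zbp1 (5.90 and 3.62 against 8.61 to 97.8 CPM) and the antiviral Oasl1 (1.85 and 2.14 against 4.99 to 72.2 CPM) were lower in floating cells.

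Against the 8d cultures, inflammatory genes were higher for 6 and lower for 3 of 11 tested. Positional HOX and related genes were higher for 5 and lower for 3 of 12, and sex-linked genes higher for 2 and lower for 1 of 4. Of all genes, 37.3% were higher and 31.4% lower there, so the HOX and sex-linked counts do not stand out. Against the cultures with PBS, inflammatory genes were higher for 2 and lower for 6 of 13 (28.7% and 26.3% of all genes). The chemokine Cxcl1 was at 39.3 and 31.9 against 6.14 to 11.6 CPM in the 8d cultures.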
